A study of Mus musculus with 8 samples.

Results

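The Hippo pathway restrains growth by keeping the coactivators Yap1 and Wwtr1 (the gene for TAZ) out of the nucleus. The kinases Lats1 and Lats2 phosphorylate both coactivators, and angiomotin proteins such as Amotl2 hold them in the cytoplasm. In the nucleus they bind the TEAD transcription factors and switch on target genes, among which Ccn1 (also called Cyr61) and Ccn2 (also called Ctgf) are the readouts used most. In the early mouse embryo the pathway separates the trophectoderm, where nuclear Yap1 acts through Tead4, from the inner cell mass, from which embryonic stem cells are derived.

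Described here are 10 genes of this pathway, Yap1, Wwtr1, Tead1, Tead2, Tead4, Lats1, Lats2, Amotl2, Ccn1 and Ccn2, taken by symbol from a table of raw read counts with 55292 features. All 10 were found, and all 10 were among the 17342 genes that passed the filter on low counts. The cells were mouse E14 embryonic stem cells of strain 129/Ola, grown on gelatin with serum and leukaemia inhibitory factor. Each of 3 groups had 2 libraries of poly(A)-selected RNA: untreated wild-type cells, untreated cells labelled lncSmad7-/-, after the long noncoding RNA lncSmad7 (the knockout), and lncSmad7-/- cells whose labels name a transfection with Smad7, which inhibits TGF-beta superfamily signals, and a time of 24 h. The sources used here do not say whether the knockout is 1 clone or what drives the transfected Smad7. The knockout transfected with lncSmad7 was not analysed here.

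Total counts lay between 13392941 and 20209760 per library, and were lowest in Smad7-labelled cells. The lncSmad7 feature had 237 and 221 counts in wild-type cells, 140 and 105 in knockout cells and 167 and 207 in Smad7-labelled cells. Its log2 fold change was -1.05 (SE 0.12, adjusted p = 3.0e-14, edgeR) in knockout against wild-type cells. In Smad7-labelled against knockout cells it was 0.79 (SE 0.13, adjusted p = 9.3e-09, edgeR), a larger rise than that of Smad7 given below. Why this feature was higher there was not tested. Where this feature lies relative to the deleted stretch is unknown here, so the reads left in knockout cells do not check the deletion. Smad7 itself had a log2 fold change of 0.41 (SE 0.048) in Smad7-labelled against knockout cells, near its wild-type level (-0.01 against wild type, adjusted p = 0.79, edgeR). Because of this small rise, the third group is called Smad7-labelled throughout. The Y-linked gene Ddx3y had a log2 fold change of -5.65 in knockout cells. Whether this fall follows from the deletion or is a separate difference between the lines was not tested. The deletion and anything else that separates the lines cannot be told apart. All 8 stem cell markers examined were measured in every group, at a summed level of 4663 to 4724 CPM (counts scaled to the normalised library size) in wild-type cells, 6753 to 6847 in knockout cells and 4527 to 4540 in Smad7-labelled cells. The trophectoderm regulator Cdx2 had at most 8 counts in a library, while other trophectoderm markers, given below, were measured and changed in both directions.

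TEAD proteins bind the M-CAT element, GGAATG or, on the other strand, CATTCC. RefSeq promoter windows of build GRCm38.p6, from 250 bases before to 50 after a gene's start, were found for 7 of the 10 genes (Yap1, Wwtr1, Tead2, Lats1, Lats2, Amotl2 and Ccn1). The 6 letters occurred in a window of 5 of these 7 genes, all but Tead2 and Lats1, and in 16.6% of all 27018 genes with a window. This match is a description of the letters and shows no binding. The windows of Ccn1 (chr3:145649936-145650235, minus strand) and Amotl2 (chr9:102717554-102717853, plus strand) are printed whole, since these were 2 of the genes that fell furthest in knockout cells. Capitals mark the match, which lay 103 to 98 bases before the start of Ccn1 and 65 to 60 bases before that of Amotl2.
Ccn1: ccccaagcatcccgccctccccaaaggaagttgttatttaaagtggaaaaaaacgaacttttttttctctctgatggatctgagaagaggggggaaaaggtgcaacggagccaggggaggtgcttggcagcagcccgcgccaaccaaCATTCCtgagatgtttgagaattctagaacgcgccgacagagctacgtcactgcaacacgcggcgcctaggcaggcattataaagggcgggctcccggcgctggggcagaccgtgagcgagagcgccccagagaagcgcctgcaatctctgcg
Amotl2: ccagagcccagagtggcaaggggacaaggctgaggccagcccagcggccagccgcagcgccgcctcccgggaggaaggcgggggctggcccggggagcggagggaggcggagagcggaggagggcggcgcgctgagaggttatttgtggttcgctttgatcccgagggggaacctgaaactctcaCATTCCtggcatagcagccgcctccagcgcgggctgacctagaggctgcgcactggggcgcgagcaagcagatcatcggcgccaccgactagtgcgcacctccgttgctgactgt

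For Yap1, Wwtr1 and Lats2, genes of the pathway itself that also held the letters, 60 bases around the match are shown, from chr9:8004705-8004764, chr3:57576014-57576073 and chr14:57746087-57746146, all on the minus strand. The match began 141 bases before the start of Yap1, 136 before that of Wwtr1 and at base 5 after that of Lats2. Wwtr1 and Lats2 each have 2 windows: from the other start of Wwtr1 the same match began 170 bases before, and the other window of Lats2 held no match.
Yap1: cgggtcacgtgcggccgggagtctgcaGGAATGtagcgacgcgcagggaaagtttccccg
Wwtr1: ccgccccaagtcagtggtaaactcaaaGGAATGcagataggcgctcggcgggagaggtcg
Lats2: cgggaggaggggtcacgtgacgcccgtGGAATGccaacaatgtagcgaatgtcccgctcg
Among these 5 genes with the letters, Ccn1, Amotl2 and Yap1 fell in knockout cells, Wwtr1 rose and Lats2 did not pass the test, so the letters did not go with 1 direction. The CArG box, the element bound by SRF, which also drives Ccn1 and Ccn2 in many cells, was found in no window of the 7 genes and in 1.63% of all windows. Ccn2 had no window and was not searched, and sites more than 250 bases before a start were not covered for any gene.

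The first comparison, knockout against wild type, addresses, by its labels, the loss of lncSmad7 in untreated cells. That loss cannot be told apart from any other difference between the lines. Of the 10 genes, 7 fell (Yap1, Tead1, Tead2, Lats1, Amotl2, Ccn1 and Ccn2), 1 rose (Wwtr1) and 2 did not pass the test (Tead4 and Lats2), by edgeR's quasi-likelihood test at an adjusted p of 0.05. Among all genes 67.7% passed, 33.3% lower and 34.5% higher, and with so broad a difference the 8 calls alone say little about the pathway. The median log2 fold change of the 10 genes was -0.40, against 0.02 over all genes tested. A change of 1 or more log2 units was reached by 3 of them, Ccn1, Ccn2 and Amotl2, all downward, while 22.9% of all genes reached it, 8.74% downward and 14.2% upward. The libraries of both groups did not overlap for 8 of the 10 genes and for 82.5% of all genes. In bulk RNA, fewer cells that express a gene and less RNA per cell cannot be told apart.

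**Figure D1:**
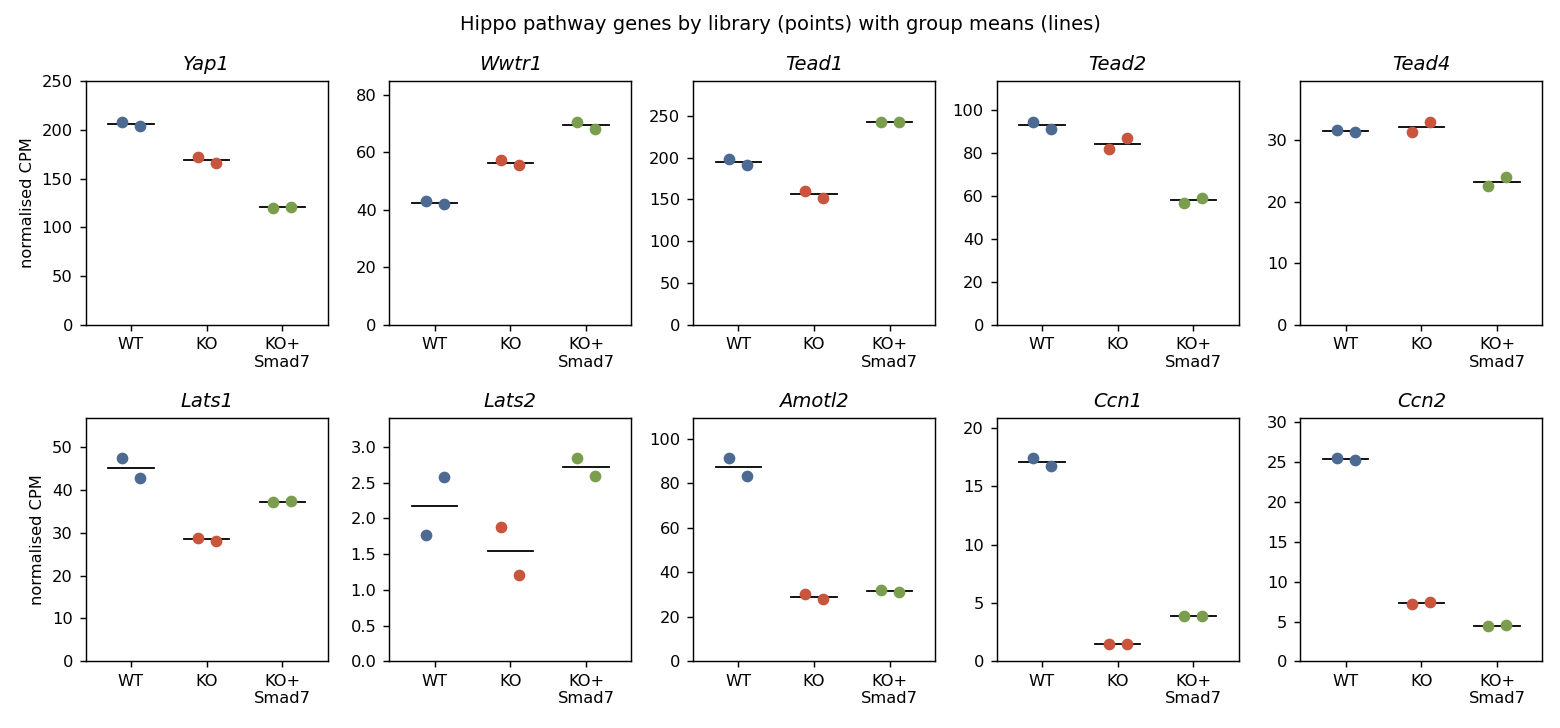
Normalised CPM (vertical axis, from 0) of each of the 10 genes in each library: wild type (WT), knockout (KO) and Smad7-labelled knockout (KO+Smad7). Points are libraries and lines are group means of 2 libraries. Ccn1, Ccn2 and Amotl2 stand far above the other groups in wild-type cells, while Yap1 steps down and Wwtr1 steps up from group to group.

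The secreted matricellular targets fell furthest. Ccn1 had 295 and 300 counts in wild-type cells, 30 and 29 in knockout cells, and 60 and 72 in Smad7-labelled cells, which is 17.4 and 16.8, 1.53 and 1.52, and 3.87 and 3.89 CPM. All wild-type libraries were thus above all others, and the knockout libraries were the lowest. Ccn1 was 11.1-fold lower in knockout cells (log2 change -3.48 with SE 0.16, adjusted p = 1.3e-47), a value below which only 0.340% of all genes lay. Ccn2 stood at 25.5 and 25.2 CPM in wild-type cells, 7.24 and 7.41 in knockout cells, and 4.39 and 4.54 in Smad7-labelled cells. Its groups did not overlap, and it was 3.46-fold lower in knockout cells (log2 change -1.79 with SE 0.10, adjusted p = 3.1e-37). The noncoding transcript Gm15270 runs antisense over 23.2% of the exon bases of Ccn2 and had at most 1 count in a library. Without a stated strand setting, reads in that stretch cannot be assigned to either gene.

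Per length of all exons, both targets were alike in wild-type cells and diverged in knockout cells. Ccn1 and Ccn2 stood at 8.46 ± 0.22 and 8.86 ± 0.065 RPKM (CPM divided by the kilobases of all exons, SD, n = 2) in wild-type cells, and at 0.756 ± 0.0015 and 2.56 ± 0.044 in knockout cells. The ratio of the RPKM of Ccn2 to that of Ccn1 was 1.03 and 1.06 in the wild-type libraries, 3.34 and 3.43 in knockout cells, and 0.800 and 0.823 in Smad7-labelled cells. The knockout libraries were separate from both other groups in this ratio. Its size rests on the length used: Ccn2 has 2861 exon bases but 2490 in its longest transcript, and Ccn1 has 2019 in either. The order of the groups does not rest on it. With 2 libraries a group an exact permutation test cannot go below a p of 0.333, so no test was made of any ratio.

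Amotl2, a cytoplasmic partner of Yap1 that is itself a target of the coactivators, had 91.3 and 83.2 CPM in wild-type cells, 30.1 and 27.9 in knockout cells, and 32.3 and 31.3 in Smad7-labelled cells. The wild-type libraries stood far above the rest, and the Smad7-labelled libraries lay just above those of the knockout. The gene was 3.005-fold lower in knockout cells (log2 change -1.59 with SE 0.058, adjusted p = 5.2e-57). Its relatives did not move as 1 family: Amot changed by -1.08 (SE 0.10) and Amotl1 by 0.83 (SE 0.082) on the log2 scale, with adjusted p-values of 6.7e-19 and 1.3e-17 by edgeR.

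The coactivators went in opposite directions. Yap1 stood at 208 and 204 CPM in wild-type cells, 173 and 166 in knockout cells, and 120.3 and 121 in Smad7-labelled cells, so that each group lay below the one before. It was 1.22-fold lower in knockout cells (log2 change -0.28 with SE 0.038, adjusted p = 3.6e-11). Wwtr1 stood at 43.1 and 41.9, 57.1 and 55.6, and 70.7 and 68.1 CPM in the same order, each group above the one before. It was 1.33-fold higher in knockout cells (log2 change 0.41 with SE 0.057, adjusted p = 1.3e-10). Both changes are small beside the spread of all genes, 32.5% of which had a lower log2 fold change than Yap1 and 68.1% a lower one than Wwtr1.

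Per length, Yap1 was the more abundant of the pair in wild-type cells, at 22.3 ± 0.34 RPKM against 8.89 ± 0.17 for Wwtr1 (SD, n = 2). The Yap1 to Wwtr1 ratio of RPKM was 2.50 and 2.51 in wild-type cells, 1.56 and 1.54 in knockout cells, and 0.879 and 0.919 in Smad7-labelled cells. Which gene is the more abundant in the last group rests on the length used: with the longest transcript in place of all exons its ratio was 1.55, and those of wild type and knockout were 4.32 and 2.67. The order of the groups is the same for either length, since 1 length per gene serves all libraries.

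**Figure D2:**
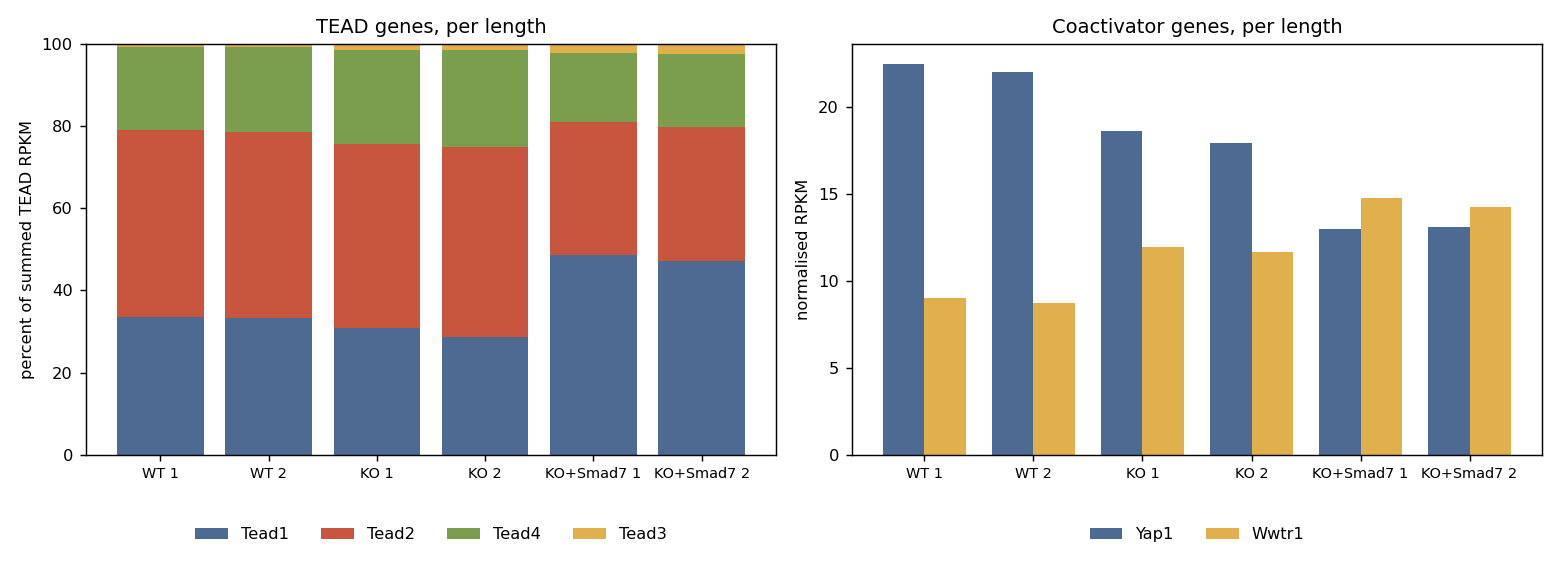
Left, the share of each TEAD gene in the summed TEAD RPKM (percent, vertical axis) of each library. Right, normalised RPKM of Yap1 and Wwtr1 (vertical axis, from 0) in each library. Tead1 holds 28.6% to 33.6% in the wild-type and knockout libraries and 47.2% to 48.7% in Smad7-labelled cells, and the bars of Wwtr1 stand above those of Yap1 there only.

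Tead1 and Tead2, DNA-binding partners of the coactivators, fell by less than Lats1 in knockout cells. Tead1 stood at 199 and 191 CPM in wild-type cells, 160.1 and 152 in knockout cells, and 243 in both Smad7-labelled libraries. It fell in knockout cells (log2 change -0.32 with SE 0.039, adjusted p = 5.1e-13). Tead2, the TEAD gene with the highest RPKM in wild-type cells, stood at 94.7 and 91.2, 81.9 and 87.0, and 56.7 and 59.2 CPM. Its fall in knockout cells was 1.10-fold (log2 change -0.14 with SE 0.047, adjusted p = 0.0066), and it was lost without wild-type replicate 1 (adjusted p = 0.093) or knockout replicate 1 (0.17) and with scaling by library size alone (log2 change 0.0055, adjusted p = 0.93).

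Tead4, the TEAD factor of the trophectoderm, stood at 31.7 and 31.4 CPM in wild-type cells and 31.2 and 33.0 in knockout cells, which overlap (log2 change 0.03 with SE 0.069, adjusted p = 0.75). Its sign turned with the scaling, from -0.14 (adjusted p = 0.054) with offsets for GC content and length to 0.17 (adjusted p = 0.024) with library size alone. Tead3, which is outside the 10 genes and was added after its values were seen to complete the family, had 32 and 39 counts in wild-type cells, 76 and 79 in knockout cells, and 80 and 117 in Smad7-labelled cells. It rose in knockout cells (log2 change 0.97 with SE 0.21, adjusted p = 1.3e-05) but took at most 1.58% of the summed TEAD RPKM there. Tead1, Tead2 and Tead4 took 33.6% and 33.4%, 45.5% and 45.2%, and 20.2% and 20.7% of that sum in the wild-type libraries.

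Of the kinases, Lats1 fell and Lats2 was barely measured. Lats1 stood at 47.3 and 42.8 CPM in wild-type cells, 28.7 and 28.1 in knockout cells, and 37.0 and 37.3 in Smad7-labelled cells, with no overlap between groups. It fell 1.58-fold in knockout cells (log2 change -0.66 with SE 0.066, adjusted p = 9.2e-18). Lats2 had only 30 and 46 counts in wild-type cells, 37 and 23 in knockout cells, and 44 and 48 in Smad7-labelled cells, the fewest of the 10 genes. Wild type and knockout overlapped, and the difference did not pass (log2 change -0.49 with SE 0.26, adjusted p = 0.087). It passed without wild-type replicate 1 (-0.73, adjusted p = 0.026), without knockout replicate 1 (-0.84, adjusted p = 0.024) and with GC and length offsets (-0.69, adjusted p = 0.014). The gene model Gm49361 shares 42.4% of the exon bases of Lats2 on the same strand and had at most 1 count. Reads in the shared exons may have been left uncounted, so the Lats2 level may be too low. Per length, Lats1 stood at 6.17 ± 0.44 RPKM in wild-type cells and Lats2 at 0.311 ± 0.081 (SD, n = 2).

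**Figure D3:**
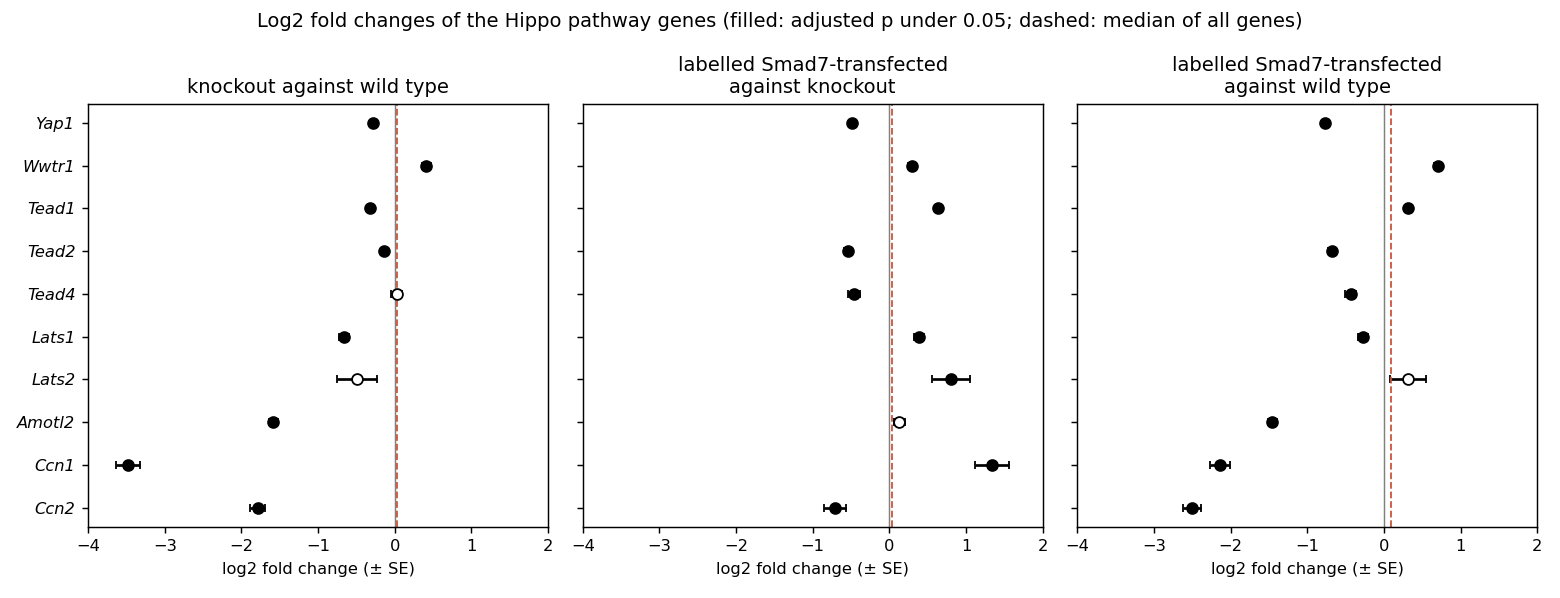
Log2 fold changes (horizontal axis) with their SE for the 10 genes in the 3 comparisons, from 1 fit over 6 libraries. Filled points passed an adjusted p of 0.05 and the dashed line is the median of all genes. Ccn1 (-3.48), Ccn2 (-1.79) and Amotl2 (-1.59) lie far left in knockout cells; Ccn1 alone is past 1 in size in the second panel. Scalings named in the text turn the sign of Tead2 and Tead4 in the first panel, Lats1 and Amotl2 in the second, and Lats1, Lats2 and Tead1 in the third.

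The second comparison, Smad7-labelled cells against the knockout, addresses, if its label holds, Smad7 added to the mutant together with the transfection itself. The knockout libraries were untreated and no mock-transfected library was in the fit, so Smad7 and the transfection cannot be told apart. This comparison shares the knockout libraries with the first, so opposite signs in the pair are not independent. Each comparison is given by its own values. Of the 10 genes, 5 were higher (Wwtr1, Tead1, Lats1, Lats2 and Ccn1), 4 were lower (Yap1, Tead2, Tead4 and Ccn2) and 1, Amotl2, did not pass. Among all genes 74.6% passed, 37.8% higher and 36.8% lower, so the number of calls again says little about the pathway. The median log2 fold change was 0.21 over the 10 genes and 0.04 over all genes. A change of 1 or more log2 units was reached by Ccn1 alone, upward, against 25.8% of all genes, 18.9% upward and 6.85% downward. The libraries of both groups were separate for all 10 genes and for 86.3% of all genes.

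The targets split in this comparison. Ccn1 was 2.54-fold higher than in knockout cells (log2 change 1.34 with SE 0.22, adjusted p = 2.1e-08), while Ccn2 was 1.64-fold lower (log2 change -0.71 with SE 0.15, adjusted p = 7.2e-06). Ccn1 and Ccn2 thus stood at 3.87 and 3.89 and at 4.39 and 4.54 CPM, both still far under wild type. Amotl2 was close to its knockout level (log2 change 0.13 with SE 0.070, adjusted p = 0.081). It passed with scaling by library size (0.38, adjusted p = 4.9e-07) and when genes had to reach 1 CPM in 4 libraries (0.23, adjusted p = 0.0018), and had the other sign with GC and length offsets (-0.03, adjusted p = 0.68).

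Among the effectors, Yap1 was 1.40-fold lower than in knockout cells (log2 change -0.49 with SE 0.041, adjusted p = 6.3e-23). Wwtr1 was 1.23-fold higher (log2 change 0.30 with SE 0.053, adjusted p = 2.3e-07), but not with GC and length offsets (0.06, adjusted p = 0.26). The TEAD genes divided: Tead1 was 1.56-fold higher (log2 change 0.64 with SE 0.039, adjusted p = 2.7e-34), Tead2 1.45-fold lower (log2 change -0.54 with SE 0.051, adjusted p = 3.3e-19) and Tead4 1.38-fold lower (log2 change -0.46 with SE 0.074, adjusted p = 1.0e-08). With GC and length offsets Tead1 stood at 0.21 (adjusted p = 1.1e-09) and Tead2 at -0.63. Tead1 therefore took the largest share of the summed TEAD RPKM in both Smad7-labelled libraries, 48.7% and 47.2%, where Tead2 took 32.2% and 32.7%. In the knockout Tead2 had held that place, with 44.8% and 46.4% against 30.9% and 28.6% for Tead1.

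For the kinases, Lats1 was 1.31-fold higher than in knockout cells (log2 change 0.39 with SE 0.068, adjusted p = 1.7e-07), yet it was lower with GC and length offsets (-0.14, adjusted p = 0.040), so its direction is not settled. The longest transcripts of Lats1, Wwtr1, Yap1 and Tead1 have 43.0%, 43.9%, 45.2% and 46.5% G and C, the lowest of the 10 genes, and those of Tead2 and Tead4 the highest, 57.9% and 58.1%. Lats2 was 1.74-fold higher (log2 change 0.80 with SE 0.25, adjusted p = 0.0025), but did not pass by DESeq2 (adjusted p = 0.13) or without knockout replicate 2 (0.50, adjusted p = 0.12). Mitochondrial transcripts took 2.33% to 2.48% of counts in Smad7-labelled cells and 1.37% to 1.40% in knockout cells. Their part in these differences was not tested.

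**Figure D4:**
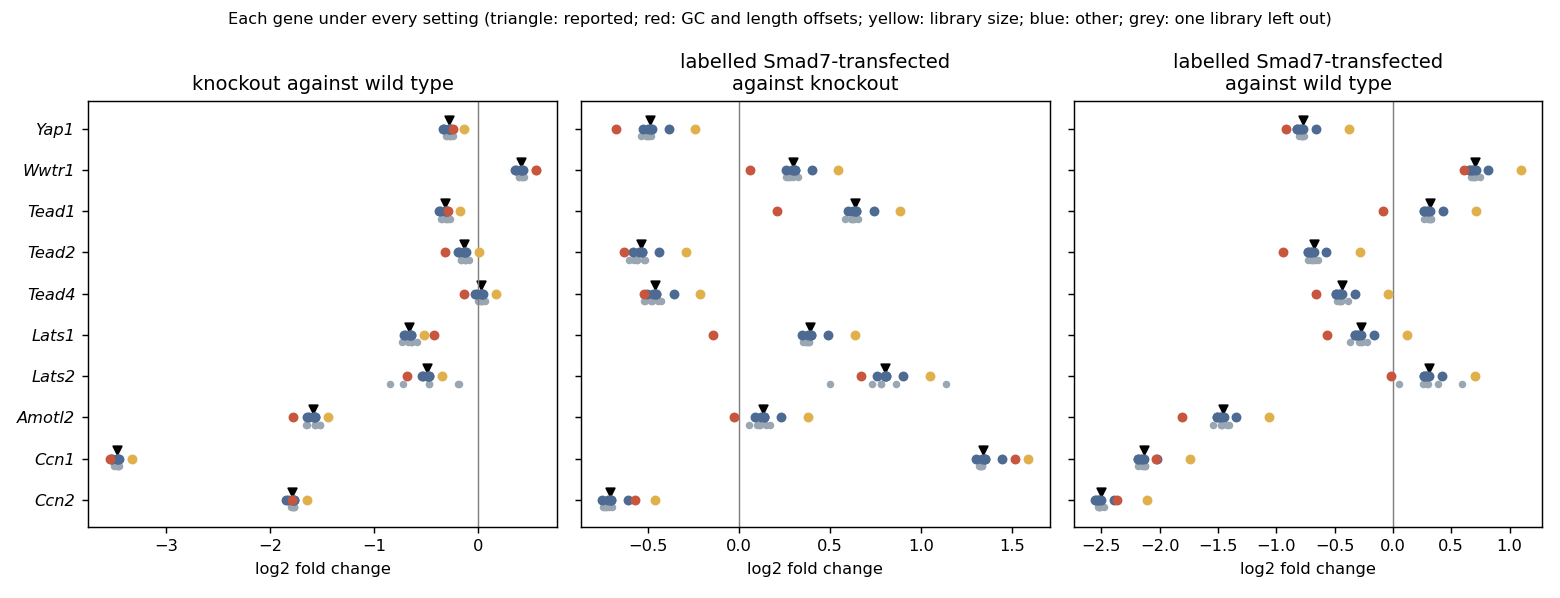
Log2 fold change (horizontal axis) of each gene as reported (triangle) and under 14 other settings: GC and length offsets (red), scaling by library size (yellow), other settings (blue) and each library left out in turn (grey). Ccn1 and Ccn2 keep their sides of 0 in all 3 panels. Lats1 in the second panel and Tead1 in the third cross to the left of 0 with GC and length offsets.

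Against wild type, a comparison that shares libraries with both others, 7 of the 10 genes were lower in Smad7-labelled cells, 2 were higher (Wwtr1 and Tead1) and Lats2 did not pass (log2 change 0.31 with SE 0.24, adjusted p = 0.21). Without wild-type replicate 1 Lats2 stood at 0.054 (adjusted p = 0.86), and without wild-type replicate 2 at 0.59 (adjusted p = 0.070). Among all genes 81.9% passed, 43.1% higher and 38.8% lower. The libraries of both groups were separate for all 10 genes and for 89.9% of all genes. Ccn2 was 5.66-fold lower (log2 change -2.50 with SE 0.12, adjusted p = 2.0e-46), Ccn1 4.39-fold lower (log2 change -2.13 with SE 0.13, adjusted p = 6.8e-34) and Amotl2 2.75-fold lower (log2 change -1.46 with SE 0.059, adjusted p = 1.1e-52). Of the 10 genes these 3 alone changed by 1 or more log2 units, as did 43.0% of all genes, 15.6% downward and 27.4% upward. Yap1 was 1.71-fold lower (log2 change -0.77 with SE 0.040) and Wwtr1 1.63-fold higher (log2 change 0.71 with SE 0.056), with adjusted p-values of 6.0e-41 and 2.5e-24 by edgeR. Tead2 stood at -0.68, Tead4 at -0.44 and Lats1 at -0.27 on the log2 scale. With scaling by library size Tead4 (-0.04, adjusted p = 0.59) and Lats1 (0.12, adjusted p = 0.084) did not pass. Tead1 was higher (log2 change 0.32 with SE 0.038, adjusted p = 1.4e-13) but lower with GC and length offsets (-0.08, adjusted p = 0.010), so its difference from wild type has no settled direction. Lats2 turned sign with the offsets as well (-0.02, adjusted p = 0.94).

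The other genes of the pathway were examined by lists that hold none of the 10 genes. Of 12 genes of the kinase cassette and its activators, 3 rose and 8 fell in knockout cells, with a median log2 fold change of -0.32. Taok1, a kinase that activates the upstream Hippo kinases, fell from 321 and 302 to 88.4 and 81.6 CPM (log2 change -1.87 with SE 0.041), and stood at 237 and 226 in Smad7-labelled cells. Mob1b, a coactivator of the Lats kinases, followed the same course, with log2 fold changes of -1.42 (SE 0.075) in knockout cells and 1.67 (SE 0.074) in Smad7-labelled cells against the knockout. Nf2, the scaffold known as merlin, and the kinase Map4k4 rose in knockout cells (0.52 and 0.97) and were lower in Smad7-labelled cells than in knockout cells (-0.80 and -0.31), where Map4k4 did not pass with scaling by library size. In that second comparison 4 of the 12 genes were higher and 6 lower, and the sign of their median (-0.19) turned with library size scaling (0.06, with 6 higher and 5 lower). The offsets for GC content and length moved it the other way, to -0.45, with 3 higher and 9 lower, and in the first comparison 5 rose and 7 fell (median -0.26), Sav1 turning from -0.33 to 0.38.

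Of 17 upstream and junctional regulators 15 were measured, of which 4 rose and 6 fell in knockout cells (median -0.02). In Smad7-labelled cells 6 were higher and 8 lower than in knockout cells (median -0.25). Both medians turned positive with scaling by library size (0.13 and 0.0016), and with GC and length offsets 2 were higher and 9 lower in the second comparison. Ajuba, a LIM protein that restrains the Lats kinases, had 277 and 279 CPM in wild-type cells, 157 and 155 in knockout cells, and 90.9 and 92.2 in Smad7-labelled cells. It was lower in each comparison (-0.83 and -0.77). The giant cadherin Fat2 rose by 4.35 (SE 0.28) in knockout cells, from only 6 and 5 counts in wild-type cells to 132 and 122. Of the TEAD partners, Vgll4, which competes with the coactivators for TEAD proteins and was named after its values were seen, had 46 and 54 counts in wild-type cells, 108 and 112 in knockout cells and 82 and 118 in Smad7-labelled cells. It rose in knockout cells (0.99 with SE 0.18, adjusted p = 2.6e-07, edgeR). Vgll3, also named after its values were seen, had 31 and 33, 21 and 24, and 59 and 64 counts in the 3 groups. It fell in knockout cells (-0.65 with SE 0.28, adjusted p = 0.035, edgeR). That fall did not pass by DESeq2 (-0.70), nor with the GC and length offsets (-0.09) or library size scaling (-0.51). Vgll3 was higher in Smad7-labelled cells than in knockout cells (1.63 with SE 0.24, adjusted p = 1.2e-09, edgeR). Vgll1 and Vgll2 had at most 2 counts in a library.

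A published signature of YAP and TAZ targets gives 18 further genes beside Ccn1, Ccn2, Amotl2 and Lats2, of which 14 were measured. These did not share the fall of Ccn1, Ccn2 and Amotl2 as a list: 8 rose and 5 fell in knockout cells, with a median log2 fold change of 0.39, against 0.02 over all genes. The phosphatase Ptpn14 rose from 27.5 and 25.3 to 59.1 and 53.5 CPM (log2 change 1.09 with SE 0.062) and reached 201 and 209 in Smad7-labelled cells (1.87 with SE 0.046, against the knockout). Gadd45a (0.95) and Arhgef17 (0.70) also rose in knockout cells. The ecto-nucleotidase Nt5e fell from 10.7 and 10.3 to 2.75 and 2.00 CPM (-2.14 with SE 0.16). F3, the gene for tissue factor, named after its values were seen, fell by 2.30 (SE 0.22, adjusted p = 1.1e-18). In Smad7-labelled cells 7 of the 14 were higher than in knockout cells and 3 lower (median 0.26), and with GC and length offsets 5 were higher and 5 lower. Fjx1 (-1.57) and Dock5 (-0.60) were lower there. Ankrd1, another widely used readout of the coactivators, had 1 and 3 counts in wild-type cells and 0 in the other groups, too few to be tested.

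**Figure D5:**
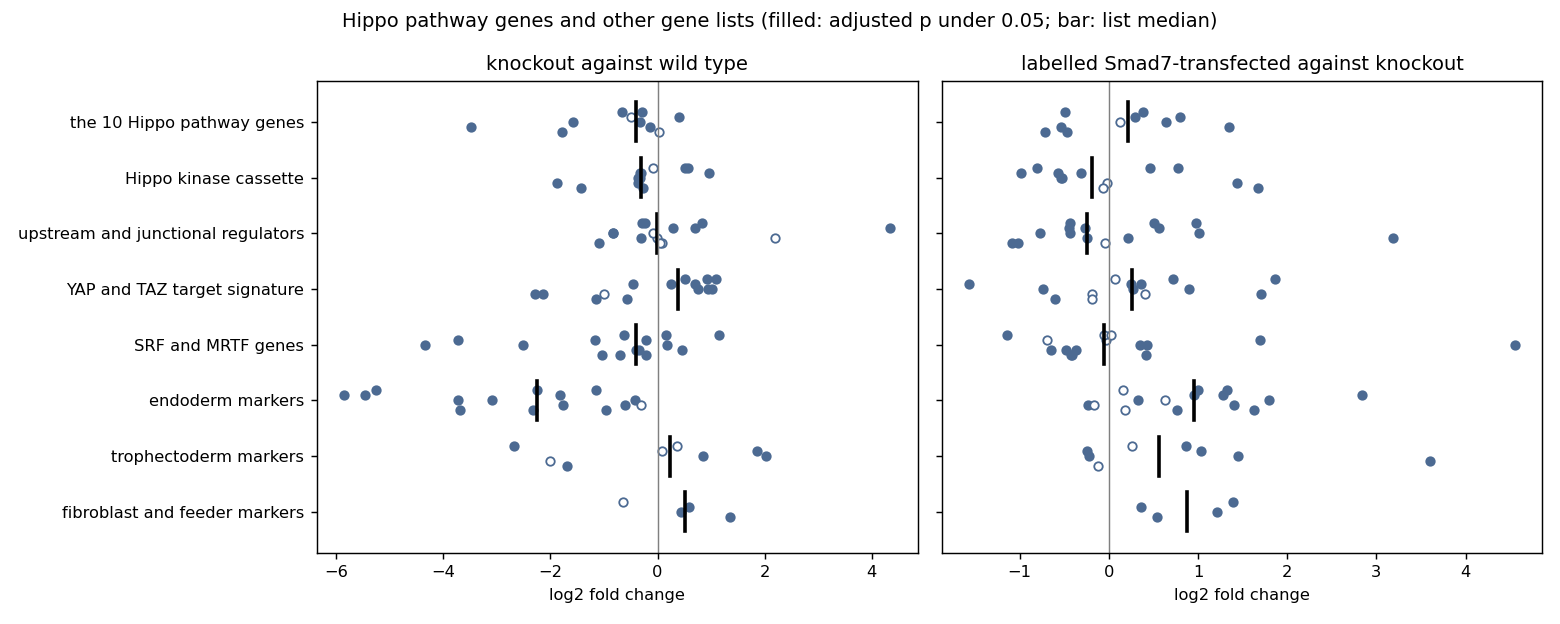
Log2 fold changes (horizontal axis) of the 10 genes and of the measured genes of other lists in 2 comparisons. Filled points passed an adjusted p of 0.05 and the black bar is the median of each list. The bar of the 10 genes lies at -0.40 in knockout cells, that of the YAP and TAZ target signature at 0.39 and that of the endoderm markers at -2.25.

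Ccn1 and Ccn2 are also targets of SRF and its actin-regulated partners, and of 15 measured SRF and MRTF genes 4 rose and 11 fell in knockout cells (median -0.40). Cnn2 (-2.52 with SE 0.10) and Actg1 (-0.70 with SE 0.037) fell and Tagln2 (1.15 with SE 0.041) rose. Srf itself stood at 51.0 and 52.6 CPM in wild-type cells, 35.4 and 31.2 in knockout cells and 15.0 and 15.1 in Smad7-labelled cells, where it was lower than in knockout cells (-1.15 with SE 0.080). In that comparison 5 of the 15 were higher and 6 lower (median -0.06, but 0.19 with library size scaling). By DESeq2, 2 SRF and MRTF genes rose and 9 fell in knockout cells. Of the other CCN genes, 3 were measured, with at most 30 counts in a library. Ccn4 and Ccn6 were higher in Smad7-labelled cells than in knockout cells (2.72 and 2.53), from 4 and 3 to 21 and 21 counts and from 10 and 1 to 27 and 30 counts.

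Endoderm markers moved in the direction of Ccn1 in both comparisons, and against that of Ccn2 in the second. Of 15 measured, 14 fell and 0 rose in knockout cells (median -2.25). In Smad7-labelled cells 10 were higher and 1 lower than in knockout cells (median 0.95). In that second comparison 8 were higher and 1 lower by DESeq2, and 9 and 1 with GC and length offsets (median 0.67). With library size scaling 11 were higher and 0 lower. The summed level of the list was 778 to 799 CPM in wild-type cells, 362 to 380 in knockout cells and 499.8 to 515 in Smad7-labelled cells. Gata6, the regulator of primitive endoderm, named after its values were seen, had 167 and 200 counts in wild-type cells, 5 and 4 in knockout cells, and 29 and 29 in Smad7-labelled cells. By the distance of centred log2 CPM over the 6 libraries, the 3 genes nearest to Ccn1 were Eya1 (0.34), Pdgfra (0.34) and Kbtbd8 (0.80), against a median of 3.16 over 10329 genes. Pdgfra, a receptor of primitive endoderm, had 17.2 and 15.8, 1.07 and 1.47, and 4.13 and 3.79 CPM in the 3 groups, close to the values of Ccn1. The part of endoderm-like cells in the levels of Ccn1, Ccn2 and Amotl2 was not tested.

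Nearest to Ccn2 by the same measure were Syde2 (0.11), D16Ertd472e (0.19) and Gtf3c6 (0.30), against a median of 2.36, and nearest to Yap1 were Ddx42 (0.046), Nup98 (0.046) and Slc25a3 (0.052), against a median of 0.88. None of these nearest genes was shared by Ccn1 and Ccn2. Since both had opposite signs in the second comparison, this is not a separate result. With 6 libraries in 3 groups, such nearness describes the 3 group levels only. Fibroblast and feeder markers had 4 measured genes, of which 3 rose in knockout cells (1 by DESeq2). With GC and length offsets 2 rose and 1 fell there. All 4 were higher in Smad7-labelled cells than in knockout cells, but 3 by DESeq2 and 3 with the offsets. The summed level of this list was 12.9 to 13.4, 22.7 to 23.0, and 36.6 to 36.7 CPM in the 3 groups. Trophectoderm markers had 8 measured genes, of which 3 rose and 2 fell in knockout cells and 4 were higher and 2 lower in the second comparison. By DESeq2, 2 rose and 2 fell in knockout cells, and 3 were higher and 0 lower in the second comparison. In knockout cells Tfap2c (2.03 with SE 0.086) and Gata2 (1.86 with SE 0.13) rose and Krt8 (-1.70 with SE 0.11) fell. The summed level of the list was 47.6 to 52.1, 68.5 to 68.8, and 66.7 to 68.8 CPM. The part of either list in the levels of the 10 genes was not tested.

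The 10 genes lie on 6 chromosomes in GRCm38, by the GENCODE annotation. Ccn1 (145646976 to 145649981, minus strand) and Wwtr1 (57455649 to 57575910, minus strand) lie on chromosome 3, Ccn2 (24595442 to 24598683, plus strand) and Lats1 (7681214 to 7716460, plus strand) on 10, and Yap1 (7931999 to 8004596, minus strand) and Amotl2 (102716672 to 102733418, plus strand) on 9. On chromosome 7 lie Tead1 (112679318 to 112906807, plus strand) and Tead2 (45215753 to 45233644, plus strand), while Tead4 (128224288 to 128300823, minus strand) is on 6 and Lats2 (57689662 to 57758388, minus strand) on 14. All 10 are protein-coding, and none lies on the X or Y chromosome.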

How the data were processed

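Poly(A)-selected RNA was sequenced from TruSeq libraries on an Illumina NextSeq 500 platform, per the labels' protocols. The deposited table holds raw counts of reads by gene symbol, made by the authors. STAR and featureCounts 1.6.3, and the builds mm10 and GRCm38, are named in the submitters' processing notes. The sources used here do not give the annotation, the strand setting or the treatment of shared reads. Of the columns, 6 matched labelled samples and 2 did not and were not used, and 6 of the 8 planned libraries entered the fit.

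Counts were filtered (filterByExpr), scaled by TMM and tested with edgeR 4.0.16's quasi-likelihood test (limma 3.58.1, R 4.3.3) in 1 fit with 3 groups, with Benjamini-Hochberg adjustment over 17342 genes. SEs are the log2 fold change over the square root of F. CPM values use TMM factors, and RPKM values divide them by all exon bases of the mouse GENCODE release M21, whose symbols matched 53292 features. Total counts limit precision for Lats2 most. The series calls replicates biological without saying more, and the spread that p-values measure here may be technical. Chi-square per degree of freedom between replicates was 1.57 to 1.89, so none was a second deposit of another.

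The genes and lists were chosen with earlier results of these data known. Named are all 10 genes and the 3 genes nearest to Yap1, Ccn1 and Ccn2. From each list of pathway, target and SRF genes and of trophectoderm markers, up to 4 passing genes are named. These have the smallest adjusted p and a mean of at least 5 CPM. The stem cell, endoderm and fibroblast lists are given by counts or sums. Cdx2, Gata6 and others were named outside this rule. Mesoderm and neuroectoderm markers were also listed. Of 5 and 6 measured, 1 and 2 rose and 3 and 2 fell in the knockout. Alternatives were RLE scaling, library size scaling, DESeq2 1.42.0, no filter, at least 1 CPM in 4 libraries, only the 2 groups compared, a replicate block, GC and length offsets per library (mgcv 1.9.3, fitted on genes of at least 5 CPM and centred on their median), and each replicate left out.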

Additional observations from a re-analysis of the deposited data

How the results depend on the processing

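The 10 genes in 3 comparisons give 30 log2 fold changes, of which 19 kept their direction and side of the threshold under all 14 alternatives. Of 420 values, 398 did so, 6 lost the call, 7 gained one and 9 changed sign. All values of Ccn1, Ccn2 and Yap1 kept their calls, and so did those of Amotl2 against wild type.

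In the knockout against wild type, Tead4 stood at -0.030 with RLE scaling, -0.016 by DESeq2, -0.14 with GC and length offsets and 0.17 with library size scaling, Tead2 at 0.0055 with library size scaling, and Lats2 at -0.69 with the offsets. In the second comparison, the offsets gave 0.060 for Wwtr1, -0.14 for Lats1 and -0.031 for Amotl2. Amotl2 stood at 0.38 with library size scaling and 0.23 with the CPM filter, and Lats2 at 0.80 by DESeq2. Against wild type, library size scaling gave -0.044 for Tead4, 0.12 for Lats1 and 0.70 for Lats2, and the offsets gave -0.084 for Tead1 and -0.019 for Lats2. The cause was not tested.

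With 1 library left out, Tead2 in the knockout ranged from -0.17 to -0.093 and Lats2 from -0.84 to -0.19, and Lats2 in the second comparison from 0.50 to 1.14 and against wild type from 0.054 to 0.59, where the lone library is assumed to vary like the others. Library size scaling moved the median of all genes to 0.17, 0.29 and 0.48 in the 3 comparisons, from 0.02, 0.04 and 0.09, and the share of higher calls to 61.7%, 65.7% and 68.3%, from 50.9%, 50.7% and 52.6%. The replicate block left the counts of called genes among the 10 at 8, 9 and 9. Deviations of same-numbered replicates correlated at 0.12, 0.03 and 0.07 across 10754 genes. With 2 libraries a group, such weak correlations cannot show whether the numbers pair the libraries. With the longest transcript the Tead1 share of wild type was 33.9%, against 33.5%, and the Yap1 to Wwtr1 ratios were 4.32, 2.67 and 1.55. Depth limits Lats2, with 23 to 48 counts.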
